A study of Mus musculus with 6 samples.

Results

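The genes described here are 35 nuclear-encoded subunits of respiratory chain complex I, taken by gene symbol from a list of such subunits. Of these, 33 had at least 1 probe set that names no other gene, among 18193 such genes on the array. RNA was measured in microdissected olfactory epithelium of male mice at 6 months of age, on 1 Affymetrix array per mouse. The 3 Harlequin mice were hemizygous for the mutant allele (Hq/Y), and the 3 controls were littermates without it (+/Y). The strain is named B6CBACAw-J/A-Pdcd8-Hq/J for the mutants and B6CBACa for the controls. Neither group was treated, and all were bought at 13 weeks of age. Whether the genetic background differed between the groups beyond the Hq allele was not tested. The purpose given for the series was to look for mechanisms of neurodegeneration under oxidative stress.

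Complex I is the entry point for electrons into the respiratory chain. It oxidises NADH in its matrix arm, passes the electrons over a chain of iron-sulfur clusters to ubiquinone, and pumps protons through its membrane arm. Core subunits carry out this chemistry and have bacterial counterparts, and accessory subunits surround them and are needed for assembly and stability. Harlequin is a mutation of Aifm1 (Pdcd8), which lies on the X chromosome and encodes apoptosis-inducing factor, and loss of this protein is known to lower the amount of complex I protein in several tissues. Apoptosis-inducing factor binds Chchd4, which imports small cysteine-rich proteins, among them complex I subunits, into the intermembrane space. An array of RNA reports transcripts, not the assembled complex. In a bulk tissue sample, fewer cells of a type and less RNA per cell cannot be told apart.

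The start-site windows of the members were searched for motifs of transcription factors long linked to respiratory genes, and the NRF1 and YY1 matches are shown because their share among the members lay furthest above that in all windows. RefSeq (GRCm38.p6) promoter sequences, from 250 bases before to 50 bases after a gene's start, matched 32 of 35 members in 34 windows. The motifs searched on both strands were NRF1 (GCGCA, any base, GCGC), ETS (CCGGAAG), YY1 (AAGATGGCG), SP1 (GGGCGG) and CCAAT (its letters). Of 61 matches in the members' windows, 2 overlapped a match of another motif. The NRF1 motif was in 8 of 34 member windows (23.5%), against 4.60% of all 32851 windows, and belonged to 7 accessory subunits and 0 core subunits. The same Ndufa5 site was counted in more than 1 window, 190 and 26 bases before their starts. By gene the motif was in 7 of 32 members. The YY1 motif was in 5 windows (14.7%), against 1.40% of all windows, and 1 of its 5 genes, Ndufs7, encodes a core subunit. The shares were 11.8% and 8.86% for ETS, 47.1% and 35.7% for SP1, and 29.4% and 37.4% for CCAAT. A match describes letters only. The NRF1 and YY1 matches are printed with up to 8 bases on either side, on the gene's strand, with the motif in capitals.
Ndufa8, NRF1 motif, chr2:36049351-36049376 (minus strand): agagcagtGCGCTTGCGCgtcgctgg
Ndufs5, NRF1 motif, chr4:123718267-123718292 (minus strand): tgcttgctGCGCAGGCGCagacccgc
Ndufa5, NRF1 motif, chr6:24527699-24527724 (minus strand): tgtgagctGCGCAGGCGCaaatctac
Ndufa6, NRF1 motif, chr15:82354251-82354276 (minus strand): gtggcaccGCGCGTGCGCacgctgaa
Ndufa11, NRF1 motif, chr17:56717694-56717719 (plus strand): tgcactgcGCGCATGCGCgcacgcct
Ndufb4, NRF1 motif nearest the start, chr16:37654373-37654398 (minus strand): tcatatccGCGCAGGCGCagatgtgc
Ndufs6, NRF1 motif, chr13:73328481-73328506 (minus strand): actgctgtGCGCCTGCGCcggcactt
Ndufs6, YY1 motif, chr13:73328433-73328457 (minus strand): tcaccggcAAGATGGCGgcggtgct
Ndufs7, YY1 motif, chr10:80249465-80249489 (plus strand): ccgaggccAAGATGGCGgcgctggc
Ndufa9, YY1 motif, chr6:126849099-126849123 (minus strand): tgtgggagAAGATGGCGgccgccgt
Ndufc1, YY1 motif, chr3:51408917-51408941 (minus strand): tgcggaacAAGATGGCGccgtccgt
Ndufs4, YY1 motif, chr13:114388045-114388067 (minus strand): cctacaggAAGATGGCGgcggtc

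The 5 YY1 matches lay 23 to 36 bases after the start on the gene's own strand, and Ndufs6 held both motifs. The 5 tested genes with the NRF1 motif had a median log2 difference between Harlequin and control of -0.0030, and the other 25 tested genes in the promoter table -0.046. Ndufv1 and Ndufv2, the neighbouring core subunits whose signals lay in opposite directions in the mutants, held neither motif. For the SP1 motif the median was -0.035 over the 15 tested genes with it and -0.035 over the 15 without it. The 250 bases before the starts of Ndufv1 and Ndufv2 are shown to set the pair side by side. SP1 matches, found on either strand before Ndufv2 and not before Ndufv1, are in capitals, and a link to the direction of the pair was not tested.
Ndufv1, chr19:4012756-4013005 (minus strand): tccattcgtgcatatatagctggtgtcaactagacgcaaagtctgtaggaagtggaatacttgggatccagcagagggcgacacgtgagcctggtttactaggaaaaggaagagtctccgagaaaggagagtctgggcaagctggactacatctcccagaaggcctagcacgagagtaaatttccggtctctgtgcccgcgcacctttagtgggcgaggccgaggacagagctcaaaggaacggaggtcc
Ndufv2, chr17:66101560-66101809 (minus strand): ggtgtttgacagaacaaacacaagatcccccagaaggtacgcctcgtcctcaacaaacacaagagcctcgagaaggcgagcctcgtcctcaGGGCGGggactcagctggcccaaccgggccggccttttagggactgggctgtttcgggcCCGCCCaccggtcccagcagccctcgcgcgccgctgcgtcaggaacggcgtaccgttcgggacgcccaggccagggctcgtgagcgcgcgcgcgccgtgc

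The median signal of an array was 107.9 to 119.7, and precision is limited by how few arrays there were. The mutated gene followed the labels. Aifm1 gave 335.4, 221.1 and 211.2 in Harlequin replicates 1 to 3 and 1239.9, 1255.6 and 1128.2 in the controls, with a log2 difference of -2.20 (SE 0.18, limma adjusted p = 0.0158). The exact permutation p (two-sided) was 0.1, which is the lowest that 3 mice a group can reach. The limma call was lost without any 1 of the controls (adjusted p of 0.0616 to 0.097). Markers of mature olfactory neurons were abundant, with 6 of 7 listed genes tested and a summed signal of 92215.7 to 96315.1 in Harlequin and 90945.7 to 97823.6 in controls.

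Complex I transcripts were close to their control level in Harlequin epithelium. Of 33 subunits tested, 14 were higher and 19 lower on average, and 28 lay within 10% of the control mean. None passed the limma test at an adjusted p under 0.05, at which 0.0303% of all 13219 genes were called, and the smallest adjusted p of a subunit was 0.981. At an unadjusted p under 0.05 there were 2 subunits (6.06%), against 4.58% of all genes. The median log2 difference was -0.035 for the subunits and 5.17e-05 for all genes. Differences ran from -0.18 for Ndufb3 to 0.29 for Ndufv1, where the range over all genes was -3.26 to 2.20. Without Harlequin replicate 3 the subunit median was 0.013, and without control replicate 2 it was also 0.013, so its sign rested on either array.

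The transcripts were among the brightest on the array. The brightest probe set of each gene, Ndufb4 aside, had a mean signal of 3292 to 13027, above 95.2% of all probe sets. The median standard error of a subunit's log2 difference was 0.084, against 0.15 over all genes. For 31 of 33 subunits the 95% interval spanned 0, for 32 it lay within 0.5 in either direction, and for 12 within 0.25. The exception at 0.5 was Ndufv1, with an upper bound of 0.52. Ndufb4 had a single dim probe set of its own (mean 149.0 in Harlequin and 153.7 in controls), since its bright ones name further Ndufb4 genes. Those bright ones differed by -0.030 and -0.050.

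**Figure D1:**
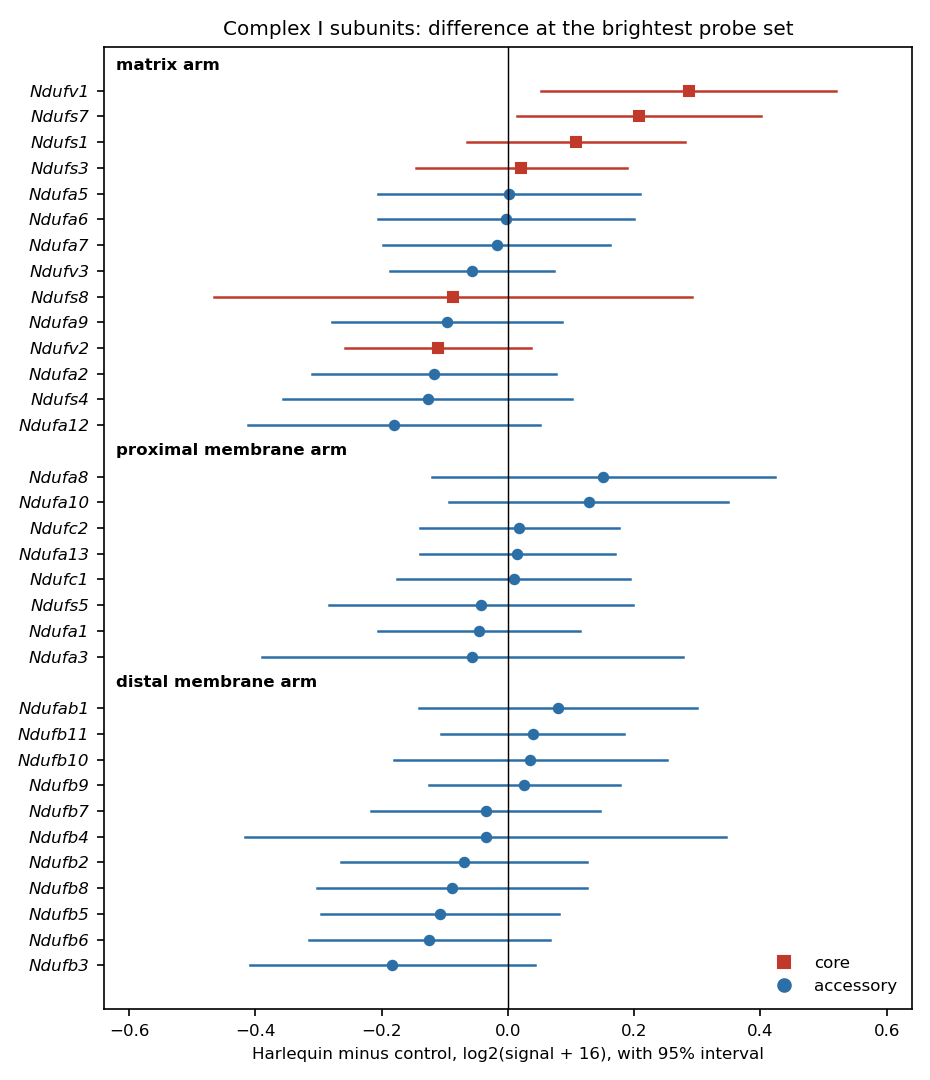
Log2 difference (Harlequin minus control, 3 against 3 arrays) of the brightest probe set of each complex I subunit, with its 95% interval, grouped by arm of the complex; squares are core and circles accessory subunits. Only the intervals of Ndufv1 and Ndufs7 leave out 0, before adjustment for the number of genes tested.

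The comparison of core with accessory subunits asked whether the catalytic subunits and their shell shared a direction. Of 6 core subunits, 4 were higher in Harlequin and 2 lower, with a median log2 difference of 0.064. Of 27 accessory subunits, 10 were higher and 17 lower, with a median of -0.035. The difference between these medians was 0.10 and stayed between 0.074 and 0.12 under each of 18 alternative settings. On the arrays, the core median minus the accessory median, each gene taken as its log2 deviation from its mean, was 0.0071, 0.079 and 0.065 in Harlequin replicates 1 to 3 and -0.0073, -0.082 and -0.11 in the controls. The groups did not overlap in this measure, although Harlequin replicate 1 and control replicate 1 lay only just apart. These are descriptions without a test, over only 6 core genes. The settings reused the same arrays, and none left out a core gene. Of all genes taken singly, 10.4% did not overlap between the groups either.

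The largest core difference was seen for Ndufv1, which binds NADH and the flavin that takes its electrons. Its brightest probe set gave 5697.7, 5377.2 and 4784.7 in Harlequin and 4698.2, 3869.9 and 4437.8 in controls. All 3 mutants lay above all 3 controls, with Harlequin replicate 3 close to control replicate 1. The mean was 121.9% of control (5287 ± 463 against 4335 ± 424, SD, n = 3), a log2 difference of 0.29 (SE 0.10, 95% interval 0.052 to 0.52), with a limma adjusted p of 0.981. The other 2 probe sets of Ndufv1 differed by 0.14 (no overlap) and 0.12 (overlapping groups). All 3 pointed the same way, these 2 with smaller differences. Leaving out 1 array moved the value between 0.21 and 0.36.

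Ndufs7, which holds the last iron-sulfur cluster before ubiquinone, was the second core subunit with an unadjusted p under 0.05. It gave 5809, 5102.1 and 5185.4 in Harlequin and 4941.4, 4544.6 and 4436.2 in controls. The groups did not overlap, and Harlequin replicate 1 was the highest. The log2 difference was 0.21 (SE 0.084, 95% interval 0.014 to 0.40, limma adjusted p = 0.981). The second probe set differed by 0.15, with overlapping groups. Ndufs1, the largest subunit, carries iron-sulfur clusters of the chain that leads to ubiquinone. Its only probe set gave 3812.3, 3790.2 and 3649.9 in Harlequin and 3612, 3483.9 and 3345.8 in controls, again without overlap, for a log2 difference of 0.11 (95% interval -0.065 to 0.28, limma adjusted p = 0.981).

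Ndufv2, the iron-sulfur partner of Ndufv1 at the tip of the matrix arm, lay the other way. It gave 9098.4, 8896.3 and 8609.1 in Harlequin and 9213.7, 9826.1 and 9683.3 in controls. Each mutant was below each control, by a small margin for Harlequin replicate 1 and control replicate 1. The log2 difference was -0.11 (95% interval -0.26 to 0.037, limma adjusted p = 0.981). The other 2 probe sets of Ndufv2 gave -0.12 each, and at both the groups overlapped. Ndufs3, which helps to form the quinone-binding part, gave 5060, 4753.3 and 5066.6 in Harlequin and 4714.4, 4883.2 and 5068.6 in controls, with overlapping groups and a difference of 0.021 (95% interval -0.15 to 0.19).

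Ndufs8, which carries a pair of iron-sulfur clusters, depended on the probe set read. Its brightest one scattered widely in both groups, with 11942.6, 12695.9 and 9555.4 in Harlequin and 12547.7, 14665.9 and 9432.9 in controls, a log2 difference of -0.087 (95% interval -0.47 to 0.29). The next brightest gave 11351.6, 11357.5 and 10044.3 against 11095.5, 10286.6 and 10754.2, a difference of 0.026. All 5 of its other probe sets were higher in Harlequin on average, by 0.026 to 0.14, and the mean over all 6 was 0.056. The 0.14 came from a dim probe set (mean signal 192) with a wide 95% interval of -0.55 to 0.82. Over every tested probe set of the core subunits, 12 of 16 were higher, with a median of 0.10. The 4 lower ones were the 3 of Ndufv2 and the brightest of Ndufs8. Without Ndufv1 the median of the core probe sets was 0.046. Of the accessory subunits' 56 tested probe sets, 25 were higher and 31 lower, with a median of -0.017.

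**Figure D2:**
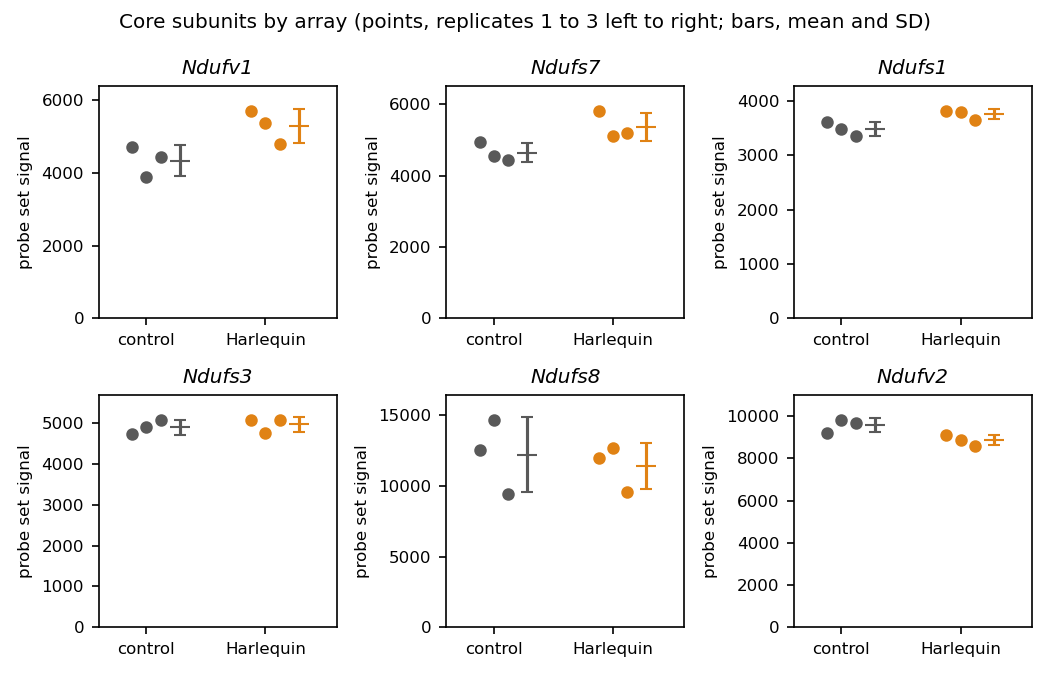
Signal of the brightest probe set of each core subunit on each array, on linear axes that start at 0; points are mice and bars give the mean and SD (n = 3). Ndufv1, Ndufs7 and Ndufs1 are higher without overlap in Harlequin, Ndufv2 is lower without overlap, and Ndufs3 and Ndufs8 overlap.

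The Harlequin values of 6 of 33 subunits (18.2%) lay wholly on one side of the control values, against 10.4% of all genes. The 3 higher ones were core subunits, at a background of 5.02% in that direction. The 3 lower ones, at a background of 5.34%, were Ndufv2 and the accessory subunits Ndufb3 and Ndufv3. Ndufb3, a small subunit of the distal membrane arm, gave 4921.3, 5066.7 and 5150.9 in Harlequin and 5213.7, 6610.2 and 5461.5 in controls. Control replicate 2 stood above the rest, and without it the log2 difference of -0.18 (95% interval -0.41 to 0.043, limma adjusted p = 0.981) shrank to -0.081. Ndufv3, attached to the flavin-binding tip, gave 11938.4, 12130.1 and 11805.2 against 12368.1, 12537.2 and 12392.7. The gap was small but regular, at 96.2% of the control mean and a log2 difference of -0.056 (95% interval -0.19 to 0.074).

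By position in the complex, 14 matrix arm subunits had a median log2 difference of -0.037 (5 higher, 9 lower), 8 subunits of the proximal membrane arm 0.012 (5 higher, 3 lower) and 11 of the distal membrane arm -0.035 (4 higher, 7 lower). No arm held a subunit that passed the limma test over all genes (smallest adjusted p = 0.981), and the 2 with an unadjusted p under 0.05, Ndufv1 and Ndufs7, were both in the matrix arm. All 6 core subunits tested are in that arm, so this adds nothing to the comparison of core with accessory subunits. Of the 5 higher matrix arm subunits 4 were core, and the other was Ndufa5 (0.0018). Among accessory subunits of the matrix arm, Ndufs4, whose loss causes a Leigh-like encephalopathy in mice, gave 3544.5, 3342.6 and 2994.5 in Harlequin and 3306.8, 3570 and 3920.2 in controls. Its groups overlapped, with a log2 difference of -0.13 (95% interval -0.36 to 0.10). Ndufa12, of the NADH-oxidising end, gave 6663.3, 7468 and 6513.6 against 7725.9, 6945.1 and 8790.2, with a difference of -0.18 (95% interval -0.41 to 0.052). The other accessory matrix arm subunits, Ndufa2, Ndufa9, Ndufa7, Ndufa6 and Ndufa5, ranged from -0.12 to 0.0018.

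In the proximal membrane arm, Ndufa8 and Ndufa10 had the highest log2 differences at their brightest probe sets. Ndufa8 gave 3774.4, 3272.7 and 3326.9 in Harlequin and 3419.9, 2631.9 and 3328.2 in controls, where control replicate 2 was low. Its log2 difference was 0.15 (95% interval -0.12 to 0.42), and 0.032 without that control. Ndufa10, which resembles a nucleoside kinase, gave 3866.9, 3479.6 and 3928.9 against 3794.9, 3165.7 and 3368.8, a difference of 0.13 (95% interval -0.093 to 0.35). Ndufa13, also known as GRIM-19, was level at 11757.8, 11904.4 and 11865.7 in Harlequin and 11589.6, 12556.5 and 11061.9 in controls (0.015). Ndufc1, Ndufc2 and Ndufa3 differed by 0.0089, 0.018 and -0.057.

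In the distal membrane arm, Ndufb8, whose protein is widely used as a blot marker of assembled complex I, gave 8154.8, 7031.4 and 7017.7 in Harlequin and 8078.4, 8415.6 and 7123.4 in controls. Its groups overlapped, with a log2 difference of -0.089 (95% interval -0.30 to 0.13). Ndufb6 gave 5084.7, 4529.5 and 4607.5 against 5150.1, 5496.1 and 4860.5, a difference of -0.12, and Ndufb5 differed by -0.11. Ndufab1, the mitochondrial acyl carrier protein, differed by 0.080, and Ndufb9, which belongs to a protein family that binds it, by 0.026. Ndufb2 differed by -0.070.

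The 4 subunits with twin cysteine motifs are known substrates of the Chchd4 import route and were read together for that reason. Of them, 2 were higher and 2 lower, and the median log2 difference was 0.00016. Besides Ndufa8, described above, Ndufs5 gave 4680.7, 4226.3 and 3584.8 in Harlequin and 4204.7, 4163.1 and 4428.7 in controls, with Harlequin replicates 1 and 3 as its extremes (-0.043, 95% interval -0.28 to 0.20). Ndufb7 gave 6786.1, 6566 and 6778.9 against 7098.4, 6260.6 and 7315.4 (-0.035), and Ndufb10 gave 3826.7, 3643.7 and 3678.2 against 3902.5, 3800.4 and 3210.1 (0.036). Chchd4 itself differed by -0.027 (95% interval -0.24 to 0.18), and its oxidase Gfer by -0.066 (95% interval -0.47 to 0.33), where Aifm1 differed by -2.20.

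Ndufa1 and Ndufb11 are X-linked, as Aifm1 is, and the X chromosome is present once in these males. Ndufa1, a small membrane-spanning subunit, gave 13429.2, 13070.8 and 11967.7 in Harlequin and 12636.9, 13769.7 and 13287.7 in controls, a log2 difference of -0.046 (95% interval -0.21 to 0.11). Ndufb11 gave 12065.3, 11885.1 and 11063.6 against 11271.1, 11227 and 11548.5, a difference of 0.039 (95% interval -0.11 to 0.18). Both overlapped between the genotypes.

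The array carried 75 probe sets that name a single member, and each was read. Of these, 3 (for Ndufa12, Ndufb9 and Ndufc2) lay below the filter on dim signal. Of the 72 tested on their own among 27022 probe sets, 37 were higher and 35 lower, with a median log2 difference of 0.0049. None passed in limma (smallest adjusted p = 0.985), at a background of 0.0259%, and 2 had an unadjusted p under 0.05, at a background of 4.7%. Harlequin and control did not overlap for 9 probe sets (12.5%), against 10% of all. Another 10 probe sets name a member together with further genes, and for Ndufa11 and Ndufs6 these were the only ones, so these 2 subunits were not tested as genes. The shared probe sets of Ndufa11 differed by 0.016 (bright) and -0.096 (dim), and that of Ndufs6 by -0.053.

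For 20 members with 2 or more tested probe sets, the differences had the same sign at 7 and opposite signs at 13. The 7 were Ndufv1, Ndufs7, Ndufv2, Ndufb5, Ndufb8, Ndufb9 and Ndufc1. The median range between probe sets of a gene was 0.17 on the log2 scale, larger than the difference of most subunits. The probe sets of Ndufv2 lay closest to each other, at -0.12, -0.12 and -0.11. Ndufa12 spread from -0.38 to 0.13 over 3 bright probe sets, and the lowest of them gave 5483.1, 8248.7 and 5638.8 in Harlequin and 8799.1, 6420.5 and 9955.9 in controls. Ndufa7 spread from -0.27 to 0.16 over 5, Ndufs4 from -0.13 to 0.22 over 4, and Ndufab1 from -0.12 to 0.29 over 5. The upper end for Ndufs4 came from a dim probe set (mean signal 150). Both ends for Ndufab1 were dim too (mean signals of 168 at the lower end and 366 at the upper).

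Some wide gaps involved dim probe sets. Ndufa10, with the widest range of all, had a bright probe set at 0.13 and a dim one at -0.43, which read 129, 141.4 and 178 in Harlequin and 241.6, 177.2 and 199.9 in controls. Ndufb8 had a second, dim probe set at -0.43, with 52.9, 74 and 48.1 against 81.7, 102.6 and 68.6. In the remaining members with opposite signs, Ndufa3 ran from -0.088 to 0.17 and Ndufb2 from -0.070 to 0.14, each with a dim probe set at the upper end. Ndufb6 ran from -0.12 to 0.061, Ndufb11 from -0.028 to 0.039, Ndufc2 from -0.031 to 0.031, Ndufb7 from -0.035 to 0.016 and Ndufa5 from -0.047 to 0.0018. The 12 probe sets with a mean signal under 1000 ran from -0.43 to 0.29 with a median standard error of 0.21, and the 60 brighter ones from -0.38 to 0.29 with a median standard error of 0.085.

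**Figure D3:**
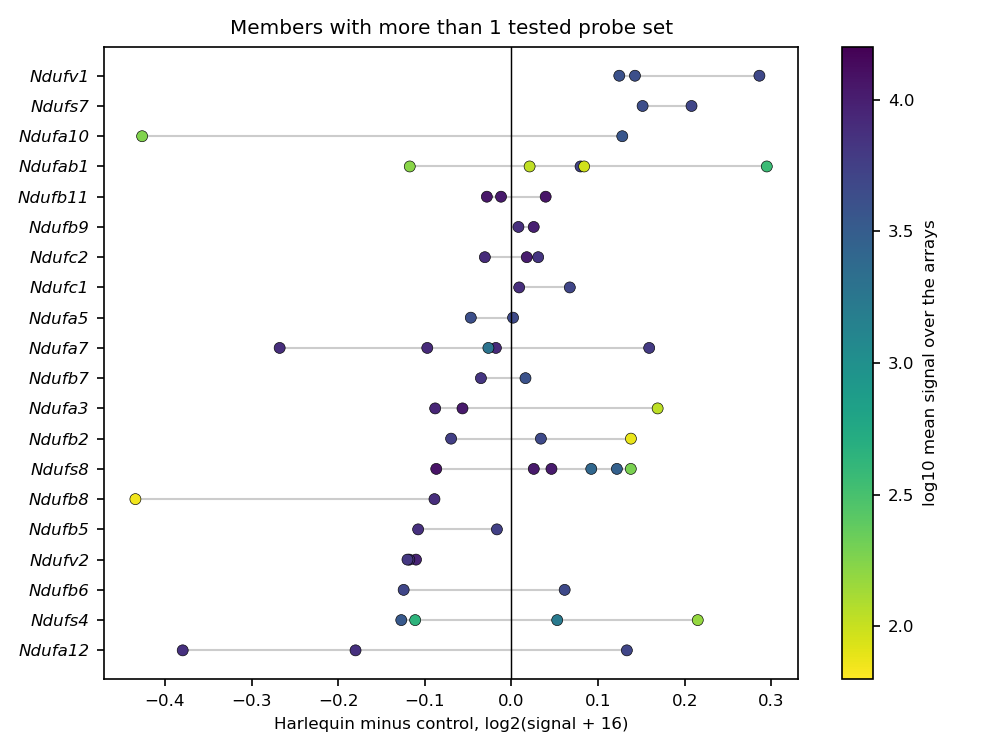
Log2 difference (Harlequin minus control) of every tested probe set of the 20 members with more than 1, joined by a line for each gene and coloured by mean signal. Ndufv1 and Ndufs7 lie wholly above 0 and Ndufv2 wholly below. Lines that end at a dim probe set include those of Ndufa10, Ndufb8, Ndufs4 and Ndufab1, whereas the lines of Ndufa12 and Ndufa7 join bright ones.

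The level of the subunits also shifted from array to array within a genotype. The median log2 deviation of the 33 subunits was 0.052, -0.010 and -0.047 on Harlequin replicates 1 to 3 and 1.7e-05, 0.040 and -0.024 on the control arrays. Control replicate 2 held the highest value of 12 subunits and Harlequin replicate 3 the lowest value of 12. For 38 subunits of complexes II to V the medians on the same arrays were 0.048, -0.026 and -0.022 in Harlequin and -0.00035, 0.039 and -0.047 in controls, highest on Harlequin replicate 1 and control replicate 2 as for complex I.

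**Figure D4:**
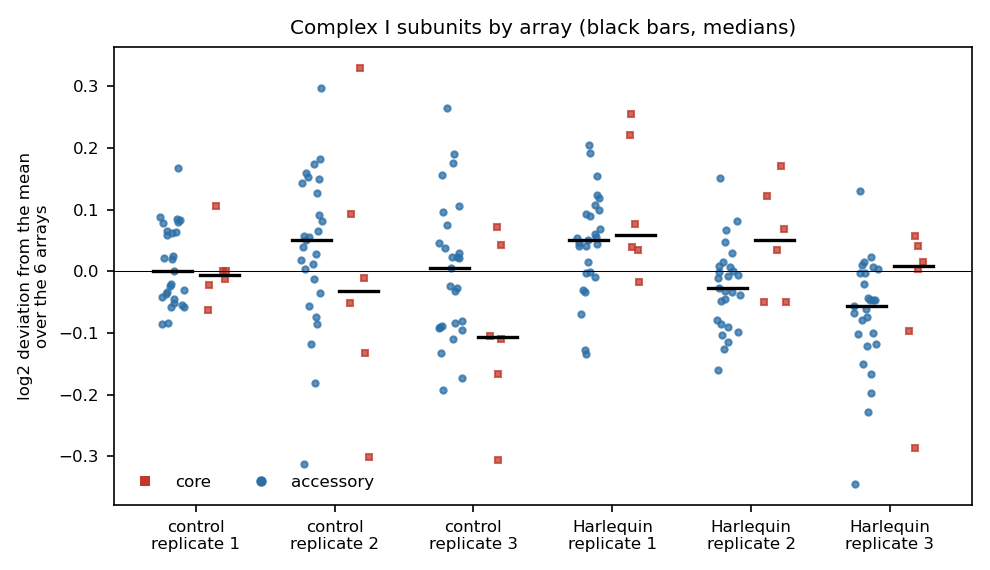
Log2 deviation of each complex I subunit from its mean over the 6 arrays, by array; circles are accessory and squares core subunits, and black bars are medians. Core medians are above accessory medians on the Harlequin arrays and below them on the control arrays, with scatter of single genes far wider than the shift.

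The rest of the respiratory chain and the machinery that builds complex I gave the frame for these values. Of 18 assembly factors tested, 8 were higher and 10 lower with a median log2 difference of -0.0096, 0 passed in limma (smallest adjusted p = 0.981), and 0 had an unadjusted p under 0.05. Those with the smallest p were Ndufaf3 (0.16, 95% interval -0.032 to 0.34), Tmem126b, which helps to build the membrane arm (-0.35, 95% interval -0.80 to 0.11), and Acad9, a dehydrogenase-like assembly factor (0.24, 95% interval -0.078 to 0.55). No probe set of the annotation used here names a mitochondrially encoded subunit.

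Complexes II, III, IV and V had median differences of -0.0091 (4 genes), -0.0087 (9), 0.022 (10) and 0.023 (15). Of these 38 subunits 20 were higher and 18 lower, 0 passed (smallest limma adjusted p = 0.981), 1 had an unadjusted p under 0.05 (2.63%, against 4.58% of all genes), and 6 did not overlap between the genotypes (15.8%, against 10.4%). The gene with the smallest p was Atp5o, of the peripheral stalk of ATP synthase, at 12903.6, 11842.8 and 12095 in Harlequin and 11134, 10966.3 and 10617.8 in controls (0.17). Of 8 regulators of mitochondrial biogenesis, 5 were higher and 3 lower, and 0 passed (smallest limma adjusted p = 0.981; 0 with an unadjusted p under 0.05). Tfam, the packaging factor of mitochondrial DNA, gave 1048.6, 1035.5 and 1047.1 in Harlequin and 1079, 1222.6 and 1335.8 in controls, without overlap (-0.21). Nrf1, whose motif is printed above, differed by 0.20, and Ppargc1b by 0.21.

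**Figure D5:**
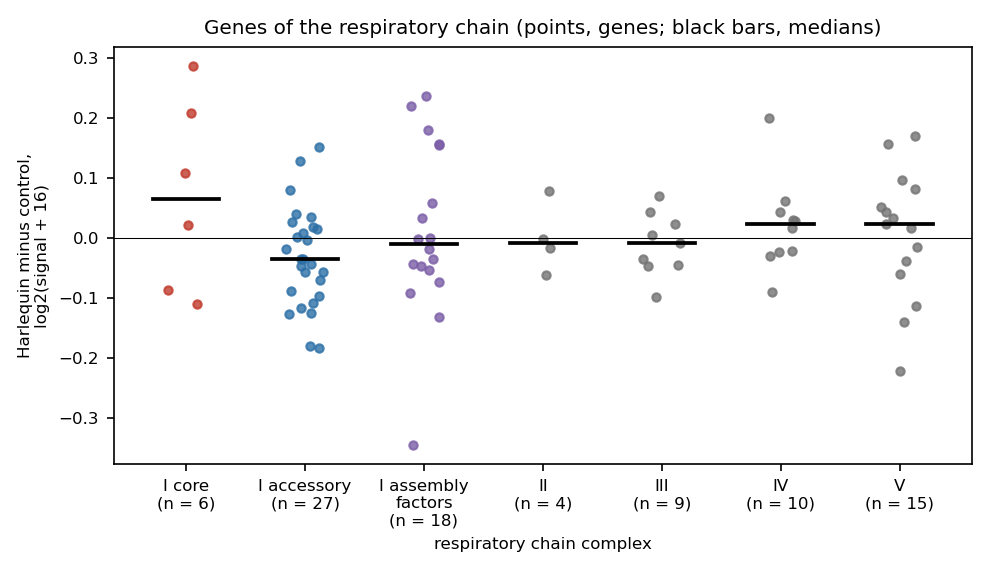
Log2 difference (Harlequin minus control) of single genes of complex I, its assembly factors and complexes II to V; points are genes at their brightest probe set and black bars are medians. All medians lie close to 0, the highest being that of the 6 core subunits of complex I (0.064) and the lowest that of its 27 accessory subunits (-0.035).

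Some marker lists of other cell types had larger median differences than complex I, although no marker gene passed in limma (smallest adjusted p = 0.75). An unadjusted limma p under 0.05, which 4.58% of all genes had, was found for 3 of 3 erythroid, 0 of 5 neutrophil, 1 of 5 fibroblast and 2 of 3 glial markers. It was also found for 1 of 3 basal cell markers (Trp63, -0.46). The 2 tested brain markers had it too, in opposite directions (Eomes 0.57, Reln -0.52). The 1 tested muscle marker differed by 0.66, with overlapping groups. The 3 tested erythroid markers were all higher, with a median log2 difference of 1.46 and summed signals of 2848 to 3709 in Harlequin and 637.7 to 1946 in controls. All 5 neutrophil markers were higher (0.82; 29637 to 47187 against 12619 to 37844), all 5 fibroblast markers lower (-0.55; 16869 to 32360 against 22016 to 35097) and all 3 tested glial markers lower (-0.42; 2042 to 2192 against 2506 to 3353). Sustentacular markers, of the supporting cells, had a median of -0.014 over 3 genes, immature neuron markers -0.018 over 4, basal cell markers 0.0062 over 3 and markers of ciliated respiratory cells -0.089 over 4. The part of such shifts in the complex I values was not tested.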

How the data were processed

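The authors deposited linear probe set intensities, 45101 per array, per the deposited value table. The software that made them is not given in the sources used here. All 6 arrays share nearly the same trimmed mean, as after scaling by 1 factor per array. The 64 control probe sets were left out. Values were analysed as log2(intensity + 16), which understates changes of dim genes. Of the other 45037 probe sets, 34945 name 1 gene, 932 several and 9160 none in the platform annotation. A gene was represented by its probe set with the highest mean log2 value, and genes above the 40th percentile (a signal of 61.1) were tested.

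Harlequin was compared with control, 3 against 3, with limma 3.58.1 under R 4.3.3 (lmFit, then eBayes with an intensity trend). P-values are two-sided, and p adjusted by Benjamini-Hochberg over all 13219 genes, or over all 27022 probe sets, is called under 0.05. The procedure was tested on simulated data with planted changes larger than any subunit difference here. It does not show whether changes of the subunits' size could be called. Lists are described by counts and medians without a test. Every member was eligible to be named, and per-array values are given for core, twin cysteine and X-linked subunits, those with the smallest p or without overlap, and others where a comparison needed them. Up to 3 genes with the smallest p could be named from each other list. Members and lists were chosen with earlier results of these data known. The gene symbols of 18033 of 18195 gene identifiers were found in the RefSeq table. The labels describe the mice of a genotype as biological replicates. Alternatives were other pseudocounts, filters, scalings, variance models, probe set rules, a replicate block and each array left out. Figures were made with matplotlib 3.10.9 in Python 3.11.15.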

Additional observations from a re-analysis of the deposited data

How the results depend on the processing

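Under all 18 alternatives 0 complex I subunits passed, and the smallest adjusted p of a subunit was 0.892. The number of complex I probe sets called was 0 wherever probe sets were tested. The median difference of the subunits ran from -0.050 to 0.013 with 1 array left out. The Aifm1 difference ran from -2.40 to -2.08 with 1 array left out, and it lost its call without each control, without an intensity trend (-2.20, adjusted p = 0.0887) and with the replicate block (-2.20, adjusted p = 0.0605). Deviations of equal replicate numbers correlated at -0.24, -0.030 and 0.058 across genes, and those of unequal numbers at -0.25 to 0.30. Deviations from a mean of 3 arrays cannot show whether mice of the same number shared a litter or batch. With the block 0 subunits passed and the core minus accessory difference was 0.10 again.

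Of the 33 subunits, 14 kept their sign under every alternative that gave them a value, Ndufv1, Ndufs7, Ndufs1, Ndufv2, Ndufb3 and Ndufv3 among them. The sign of 19 turned under at least 1, in each case without a call. Quantile normalization gave 0.017 for Ndufa6. Median scaling gave 0.024 for Ndufa6 and 0.0090 for Ndufa7. Array weights gave -0.024 for Ndufa5, 0.024 for Ndufa6, -0.00036 for Ndufb10 and -0.018 for Ndufc1. The mean over probe sets gave 0.0080 for Ndufa3, -0.023 for Ndufa5, -0.15 for Ndufa10, 0.034 for Ndufb2, -0.00035 for Ndufb11, 0.0074 for Ndufs4 and 0.056 for Ndufs8. Without _s_at and _x_at probe sets Ndufc2 was at -0.031, and 30 subunits had a value, Ndufa2, Ndufa12 and Ndufa13 being left out. Ndufb4 had no value with the filter at the 60th percentile. With 1 array left out, the sign turned for 15 subunits. Their ranges were -0.053 to 0.082 for Ndufa5, -0.012 to 0.054 for Ndufb9, -0.051 to 0.050 for Ndufc1, -0.063 to 0.041 for Ndufa7, -0.020 to 0.045 for Ndufc2, -0.080 to 0.0028 for Ndufa1, -0.17 to 0.10 for Ndufa3, -0.047 to 0.084 for Ndufa6, -0.13 to 0.061 for Ndufs5, -0.26 to 0.057 for Ndufs8, -0.11 to 0.040 for Ndufb4, -0.0050 to 0.051 for Ndufs3, -0.027 to 0.065 for Ndufa13, -0.10 to 0.0093 for Ndufb7 and -0.052 to 0.089 for Ndufb10. The mean over probe sets and the choice of probe set change what is averaged; for the other alternatives the cause was not tested. With 3 arrays a genotype, the 95% intervals of the subunits reach out to between 0.17 and 0.52 on the log2 scale.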
